A study of Mus musculus with 38 samples.

Results

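The response of the liver to refeeding was followed in mice that carry loxP-flanked alleles of the insulin receptor gene (IR floxed), the controls of the liver-specific insulin receptor knockout. The 8 livers were chosen by genotype and feeding state alone, 4 IR floxed fasted and 4 IR floxed refed, of 38 samples in the series. All 8 mice were males, 11 to 12 weeks old; their background was a mixture of FVB/N and C57Bl/6. The fast is given as 24 h in the sample descriptions and as overnight in the treatment field and protocol, and the refed mice were killed 6 h after regular food was returned. Mice were sedated with isoflurane and decapitated, and each liver gave 1 labelled RNA of 200 ng on a 2-colour Agilent array. The floxed alleles are the only genetic change that the labels name in these mice; the knockouts carry albumin-Cre, which acts in hepatocytes. Responses of 2 further genotypes, of the same sex, age and background, were used for comparison: 3 fasted and 3 refed IR/FoxO1 floxed mice, the controls of the double knockout, and 3 fasted and 4 refed LIRKO mice, which lack the insulin receptor in hepatocytes. The labels do not say whether the samples of a group came from separate litters or cages, so the p-values measure only the spread between single livers. That spread was estimated jointly over the 37 samples in 11 groups of the fit, glucose-treated and double knockout livers among them.

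A fasting liver exports glucose and ketone bodies under glucagon, glucocorticoids and the transcription factor FoxO1, which drives gluconeogenic genes such as G6pc and Pck1. A meal raises insulin, which binds its receptor on hepatocytes, moves FoxO1 out of the nucleus through Akt, and turns on the lipogenic and sterol programmes of the SREBP factors. Feeding also restores the synthesis and export of plasma proteins, a process that runs through the endoplasmic reticulum (ER), where chaperones fold new proteins, and on through vesicles to the Golgi. When the folding load rises, the sensors IRE1 and ATF6 switch on chaperone genes in what is called the unfolded protein response.

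The deposited values were log2 expression per channel, with a lowest value of 5.07, and column medians of the 8 livers lay between 5.74 and 5.77. Values of 15.8 and above lie at the top of the range, where a difference is understated. Of the hepatocyte markers, 9 of 10 were measured, and their mean level was 15.13 to 15.28 in all 8 livers. Livers are named by the ending of their labels. The fasted liver Fast_486 stood apart from the other 7. Its mean level over 22 measured pancreatic acinar markers was 8.88, against 5.91, 5.96 and 6.42 in Fast_491, Fast_542 and Fast_552 and 5.87 to 5.93 in the refed livers. Ctrb1, chymotrypsinogen, read 12.18 in Fast_486 and 6.97 to 7.75 in the others. None of the 22 markers passed the limma test between refed and fasted livers, and 0 had an unadjusted p under 0.05. Their median difference was -0.70, with 0 markers above 0, and it was 0.02 without Fast_486. The test shares its spread with groups whose acinar means reached 9.98 (glucose-treated IR floxed) and 10.57 (refed double knockout). It therefore says little about the acinar RNA of 1 liver. Pancreatic islet markers read 5.62 to 5.73 in all 8 livers. Counts without Fast_486 are given beside the gene groups with a change, and the part of the acinar RNA in those results was not tested.

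**Figure D1:**
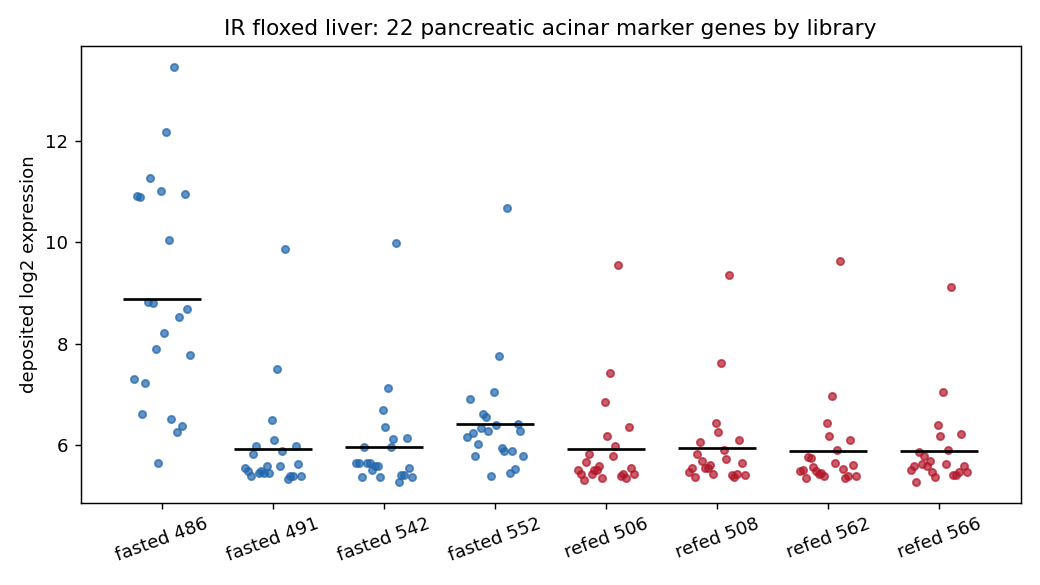
Each point is the deposited log2 expression (vertical axis) of 1 of 22 pancreatic acinar marker genes in 1 liver (horizontal axis: 4 fasted livers in blue, 4 refed in red), and the black line is the mean over the markers. The mean is 8.88 in fasted liver Fast_486 and 5.87 to 6.42 in the other 7.

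A difference is refed minus fasted on the log2 scale with its standard error, and a gene is said to rise or fall where its Benjamini-Hochberg adjusted p from limma, over 22485 genes, was under 0.05. By that rule 811 genes changed, 3.61% of those tested; 477 rose (2.12%) and 334 fell (1.49%), and the median difference of all genes was -0.003. In 600 of the 811 genes the 4 fasted and 4 refed livers did not overlap, which held for 7.39% of all genes tested. A lack of overlap was a condition for naming the 12 largest rises and 12 largest falls, so it is no added support for those genes. Differences over 1 were found in 78 of the genes that rose and 80 of those that fell. The calls depend on single livers and on the slide: 415 genes passed without Fast_542, 479 without Refed_562, 509 without Refed_506 and 493 with slide as a block. With only the 8 livers fitted 61 passed, with library quality weights 1393, and 250 of the genes (30.8%) passed with each of the 8 livers left out in turn. Values of single livers are given below in the order Fast_486, Fast_491, Fast_542, Fast_552 and Refed_506, Refed_508, Refed_562, Refed_566.

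**Figure D2:**
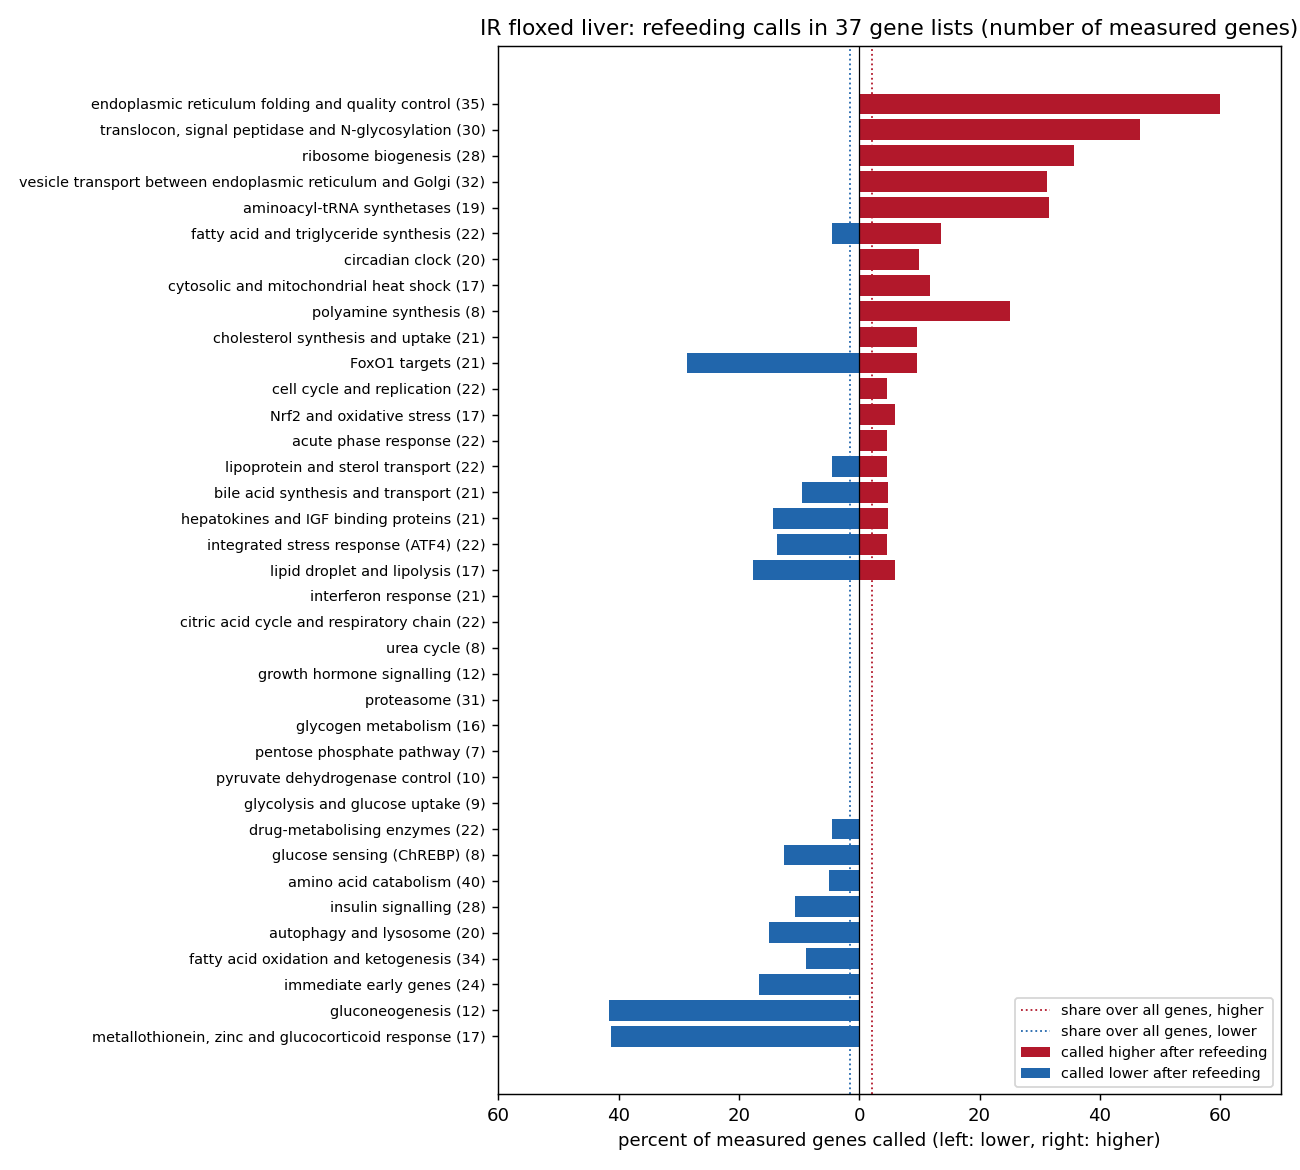
Bars give the percent of measured genes in each of 37 lists that rose (right, red) or fell (left, blue) after refeeding, with the number of measured genes in parentheses; dotted lines mark 2.12% (higher) and 1.49% (lower) over all genes. The ER folding list reaches furthest right, with 21 of 35 genes, and gluconeogenesis (5 of 12) and the metallothionein and glucocorticoid list (7 of 17) furthest left.

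Genes rose at each step of the secretory pathway. Of 35 genes of ER folding and quality control, 21 rose and none fell, with a median difference of 0.83 and 34 of 35 above 0; 18 passed without Fast_486, and 14 without Fast_542. Slides 184 and 185 held both feeding states, and the median of the list was 0.99 within the first and 1.26 within the second. These within-slide values carry no dye term. On slide 184 Fast_542 was read in Cy5 and Refed_506 and Refed_562 in Cy3, so dye and feeding state cannot be told apart there. Creld2, a secreted ER stress protein, read 12.51, 11.80, 12.12 and 11.38 in the fasted livers and 14.36, 13.97, 15.90 and 15.56 in the refed livers. Every refed liver was above every fasted liver, Refed_562 reached the top of the range, and the difference was 2.95 ± 0.47 (adjusted p = 0.000582). Hspa5, which encodes BiP, the main ER chaperone, read 13.88, 13.87, 13.83 and 13.43 fasted and 14.95, 14.53, 15.90 and 15.87 refed. Its groups did not overlap either, with 2 refed livers at the top of the range and a difference of 1.64 ± 0.35 (adjusted p = 0.00697). Sdf2l1, a cofactor of BiP, rose by 2.48 ± 0.47 and Manf, a secreted ER protein, by 2.15 ± 0.40. Derl3, part of the machinery that takes misfolded proteins out of the ER, read 8.71, 8.90, 7.56 and 6.76 fasted and 10.78, 10.33, 10.87 and 11.40 refed. The groups were separate, the difference was 2.91 ± 0.66 (adjusted p = 0.0116), and it was 4.64 between Fast_552 and Refed_566, which share slide 185.

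Other genes of folding rose by less. The disulfide isomerases Pdia6, Pdia4 and Pdia3 rose by 1.24, 1.27 and 0.95, the lectin chaperones Calr and Canx by 1.13 and 0.46, and Hsp90b1, the ER form of Hsp90, by 1.42. Syvn1, the ubiquitin ligase of ER-associated degradation, read 12.37, 11.88, 12.26 and 11.90 fasted and 12.95, 12.37, 15.33 and 14.35 refed. Refed_562 and Refed_566 were far above the other 2 refed livers, and Refed_508 equalled the highest fasted liver to 2 decimals. The difference was 1.60 ± 0.39 (adjusted p = 0.0185), and adjusted p = 0.0871 without Refed_562. Xbp1, whose messenger RNA is spliced by IRE1 into an active transcription factor, rose by 1.09 ± 0.20. The sensors themselves did not pass: Ern1, which encodes IRE1, differed by 0.03 ± 0.14 and Atf6 by 0.01 ± 0.12. Among the 21 genes that rose, the highest refed liver was Refed_562 in 12 and Refed_566 in 8.

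The promoters of these genes were searched because ATF6, together with the CCAAT-binding factor NF-Y, is known to bind an ER stress response element. The element, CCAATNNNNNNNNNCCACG on either strand, was looked for in the 300 bases from 250 before to 50 after each RefSeq gene start (GRCm38.p6). It was present in 37 of 27025 genes with a promoter entry (0.137%), and in 10 of the 29 ER folding genes with an entry (34.5%). Of these 10 genes, 9 rose; the exception was Dnajc3, a cochaperone of BiP, with a difference of 0.56 and adjusted p = 0.183. The matches are shown with 20 bases on each side in the direction of the gene, the matched letters in capitals.
Hspa5: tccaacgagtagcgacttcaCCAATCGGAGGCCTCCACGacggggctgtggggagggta
Hsp90b1: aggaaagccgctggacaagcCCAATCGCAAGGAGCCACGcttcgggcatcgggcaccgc
Canx: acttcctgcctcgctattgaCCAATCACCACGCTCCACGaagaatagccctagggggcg
Pdia6: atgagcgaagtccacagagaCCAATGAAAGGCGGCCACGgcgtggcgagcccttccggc
Syvn1: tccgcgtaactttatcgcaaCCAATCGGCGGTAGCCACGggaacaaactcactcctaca
Dnajc3: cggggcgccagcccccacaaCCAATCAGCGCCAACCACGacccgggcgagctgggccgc
Calr: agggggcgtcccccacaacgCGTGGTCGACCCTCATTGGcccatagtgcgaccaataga
Creld2: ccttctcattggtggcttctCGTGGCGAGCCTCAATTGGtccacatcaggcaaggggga
Derl3: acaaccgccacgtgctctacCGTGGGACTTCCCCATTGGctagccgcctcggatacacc
Ero1b: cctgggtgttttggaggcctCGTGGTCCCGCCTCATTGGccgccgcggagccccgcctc

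The first 6 of these carry the element on the gene's own strand and the last 4 on the opposite strand, where it reads CGTGG to ATTGG. The Hspa5 window lies at chr2:34772005-34772063 on the plus strand, with the element starting 65 bases before the gene start. Creld2 has it 126 bases before the start, at chr15:88819500-88819558 (plus strand), and Derl3 156 bases before, at chr10:75893222-75893280 (plus strand). Calr has it 162 bases before the start, at chr8:84847055-84847113 on the minus strand. Hsp90b1 holds a second match on the opposite strand 107 bases before its start, beside the shown match at 212 bases. Over all measured genes, chosen by the element alone, 27 had a match. Of these, 11 rose (40.7%, against 2.12% of all genes) and none fell, with a median difference of 0.23. The 27 include the 10 ER folding genes above, 9 of which rose, so this share is not separate from that list. The genes that rose outside the ER list were Alg12, a mannosyltransferase that builds the N-glycan precursor, by 0.66, and Hnrnpa3, an RNA-binding protein, by 0.52. No match was found in the promoter windows of 23 translocon genes or 28 vesicle transport genes, and Manf and Hyou1 had no promoter entry.

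**Figure D3:**
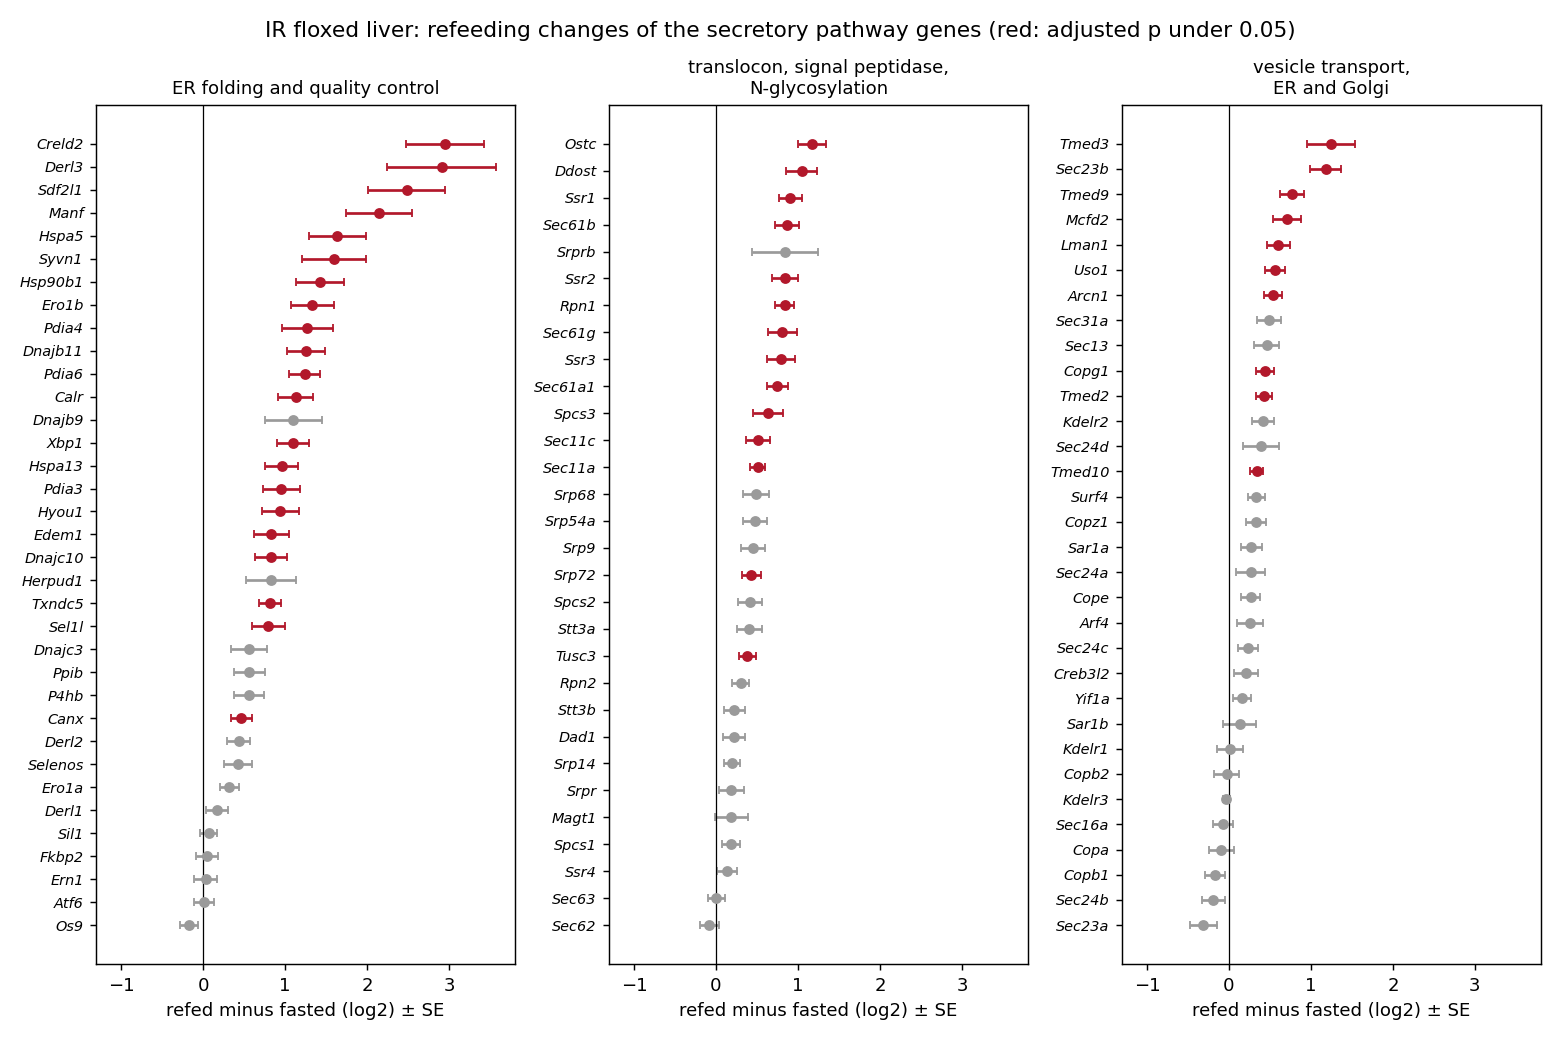
Points give the refed minus fasted difference (log2, horizontal axis) with its standard error for every measured gene of 3 lists: ER folding (35 genes), translocon, signal peptidase and N-glycosylation (30) and vesicle transport (32). Red marks adjusted p under 0.05, 21, 14 and 10 genes, all of them above 0.

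Genes of entry into the ER and of N-glycosylation rose as well. Of 30 genes of the translocon, signal peptidase and oligosaccharyltransferase, 14 rose and none fell, with a median of 0.46; 11 passed without Fast_486. Ostc, a subunit of oligosaccharyltransferase, read 9.64, 9.76, 9.35 and 9.45 fasted and 10.48, 10.41, 11.21 and 10.83 refed. The groups were separate and the difference was 1.17 ± 0.17 (adjusted p = 0.000231). Rpn1, another subunit, rose by 0.84 ± 0.12, Ssr1 of the translocon-associated complex by 0.91 ± 0.14, and the channel subunits Sec61a1, Sec61b and Sec61g by 0.75, 0.87 and 0.81. Of 32 genes of vesicle transport between ER and Golgi, 10 rose and none fell, with a median of 0.30; 8 passed without Fast_486 and 5 without Refed_562. Sec23b, a coat protein of the vesicles that leave the ER, read 10.29, 9.86, 9.88 and 9.75 fasted and 10.54, 10.74, 11.79 and 11.60 refed. It rose by 1.18 ± 0.19 (adjusted p = 0.000613), with Refed_562 and Refed_566 about 1 unit above the other refed livers. Tmed9, Uso1 and Arcn1, a cargo receptor, a tether and a coat protein of the Golgi, rose by 0.77, 0.56 and 0.54.

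Genes for making ribosomes and charging tRNAs rose by smaller amounts. Of 28 genes of ribosome biogenesis, 10 rose and none fell (median 0.44); the same number passed without Fast_486, and 5 without Fast_491. Nolc1, a nucleolar chaperone, read 8.76, 8.46, 8.64 and 8.09 fasted and 9.13, 9.38, 9.04 and 9.31 refed. Its groups did not overlap, with a difference of 0.78 ± 0.16 (adjusted p = 0.00664). Wdr12, Grwd1 and Gnl3, factors of the large ribosomal subunit, rose by 0.60, 0.58 and 0.81. Of 19 aminoacyl-tRNA synthetases, 6 rose (Kars, Wars, Nars, Aars, Farsb and Iars, by 0.40 to 0.87), none fell, and all 19 were above 0; 6 of the list passed without Fast_486 and 3 without each of Fast_491, Fast_552 and Refed_562. Srm, spermidine synthase, read 10.10, 9.84, 9.97 and 10.01 fasted and 11.13, 11.20, 11.46 and 11.58 refed. It rose by 1.32 ± 0.18 (adjusted p = 0.000111), and the spread within each group was small beside that gap. Odc1, the first enzyme of polyamine synthesis, rose by 0.83 ± 0.18, and the other 6 polyamine genes did not pass. Without Fast_486, 2 polyamine genes passed. Of 17 cytosolic and mitochondrial heat shock genes, Ahsa1 and Chordc1, cochaperones of Hsp90, rose by 0.47 and 0.86 (median of the list 0.46), and neither passed without Fast_486. None of 31 proteasome genes passed in limma (1 with an unadjusted p under 0.05), with a median of 0.09.

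Gluconeogenic genes fell in part. Of 12 genes, 5 fell and none rose, with a list median of -0.10, and 3 of the 12 lay above 0; 3 passed without Fast_486. G6pc, glucose-6-phosphatase, the last step of glucose release, read 13.90, 12.79, 13.34 and 13.32 fasted and 11.51, 12.72, 10.03 and 10.56 refed. Refed_508 lay just under the lowest fasted liver, and the difference was -2.08 ± 0.42 (adjusted p = 0.00461). Pck1, the cytosolic phosphoenolpyruvate carboxykinase, read 15.86, 15.48, 15.16 and 15.50 fasted and 14.16, 14.67, 13.75 and 12.71 refed. The groups were separate, with Fast_486 at the top of the range; the difference was -1.46 ± 0.42 (adjusted p = 0.0483), and -1.29 without Fast_486 (adjusted p = 0.138). Ppargc1a, the coactivator of the programme, read 10.34, 9.05, 8.97 and 9.37 fasted and 7.31, 7.52, 7.39 and 7.31 refed. The refed livers lay close together, while Fast_486 was the highest; the difference was -1.83 ± 0.38, and -1.50 without that liver (adjusted p = 0.0299). Gpt2 and Got1, transaminases that supply pyruvate and oxaloacetate, fell by 1.05 and 1.90; Got1 in Refed_566, at 14.58, was within the fasted range. Fbp1 and Pcx did not pass, at -0.10 ± 0.23 and -0.11 ± 0.13. None of 9 glycolysis and glucose uptake genes, 16 glycogen genes or 7 pentose phosphate genes passed in limma, with medians of 0.20, -0.03 and 0.08 and 2, 3 and 3 genes at an unadjusted p under 0.05.

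**Figure D4:**
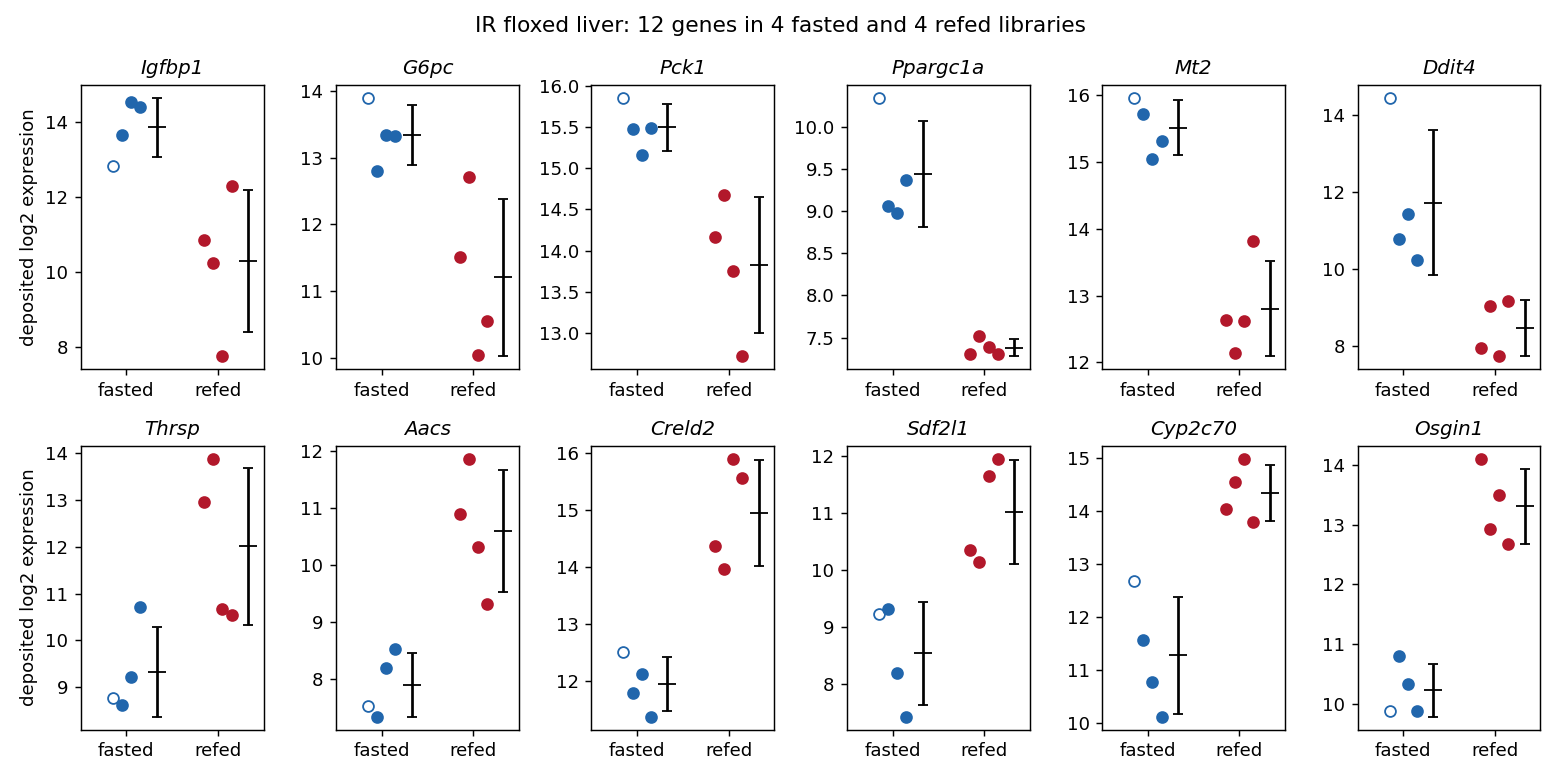
Deposited log2 expression (vertical axis, its own range for each gene) of 12 genes in 4 fasted livers (blue; the open circle is liver Fast_486) and 4 refed livers (red); black marks give the mean and SD (n = 4). The groups are separate for each gene shown other than Thrsp, where Fast_552 at 10.71 lies above Refed_562 and Refed_566 at 10.66 and 10.54. Separate groups were a condition for naming the 12 largest rises and 12 largest falls.

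Known targets of FoxO1 moved in both directions. Of 21 genes, 6 fell (Igfbp1, G6pc, Klf15, Ppargc1a, Irs2 and Pck1) and 2 rose (Gadd45a and Srebf1), with a median of -0.31. Without Fast_486, 6 of the 8 passed. Lists share members, so their counts are not separate results. G6pc, Pck1 and Ppargc1a are also in the gluconeogenesis list, Klf15 in the glucocorticoid list and Irs2 in the insulin signalling list. Igfbp1, a binding protein that limits free IGF-1, read 12.82, 13.66, 14.54 and 14.41 fasted and 10.85, 10.23, 7.75 and 12.31 refed. The groups did not overlap, but the refed livers were spread widely, with Refed_562 lowest and Refed_566 highest, around a difference of -3.60 ± 0.69 (adjusted p = 0.00294). Irs2, an adaptor of the insulin receptor, read 10.02, 10.06, 10.31 and 10.37 fasted and 9.42, 8.62, 8.73 and 8.97 refed. It fell by 1.24 ± 0.26 (adjusted p = 0.0073) with separate groups. Klf15, a factor of amino acid use in fasting, fell by 1.19 ± 0.24. Gadd45a, a growth arrest gene, went the other way, from 5.71, 6.29, 6.05 and 6.01 fasted to 7.52, 6.996, 7.97 and 7.46 refed. Its rise was 1.43 ± 0.26 (adjusted p = 0.00239). Foxo1 itself did not pass (-0.60 ± 0.41), nor did Insr (-0.54 ± 0.21, adjusted p = 0.192).

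The core letters CAAAACAA of the insulin response element that FoxO1 is known to bind at Igfbp1 were searched for in the same windows. They were present on either strand in 2.88% of 27025 genes and in 3 of the 17 FoxO1 targets with an entry, Igfbp1, Irs2 and Ccng2; Ccng2 did not pass. The windows of the genes that fell are shown with the core in capitals.
Igfbp1: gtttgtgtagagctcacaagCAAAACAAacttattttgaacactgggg
Irs2: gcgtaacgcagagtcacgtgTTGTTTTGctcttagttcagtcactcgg

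The Igfbp1 window lies at chr11:7197659-7197706 (GRCm38.p6, plus strand), with the core 108 bases before the gene start. The Irs2 window lies at chr8:11008940-11008987 (minus strand), with the core on the opposite strand 38 bases before the start. Over all 411 measured genes with the core, 6 rose (1.46%, against 2.12% of all genes) and 10 fell, with a median difference of -0.01. Of all genes, 1.49% fell.

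Genes of insulin signalling and secreted factors of the liver changed in small numbers. Of 28 insulin signalling genes, 3 fell and none rose: Irs2, Pdpk1, the kinase that activates Akt, by 0.47 ± 0.09, and Tsc1, an inhibitor of mTORC1, by 0.45 ± 0.12; 2 of them passed without Fast_486. Among 21 measured hepatokine and IGF binding protein genes, 1 rose and 3 fell, and 3 passed without Fast_486. Angptl8, an insulin-induced inhibitor of lipoprotein lipase, had the largest rise among the named genes. It read 9.65, 9.56, 10.57 and 8.95 fasted and 12.32, 12.04, 14.29 and 13.90 refed, a difference of 3.40 ± 0.49 (adjusted p = 0.000229) with separate groups. Angptl4, a fasting-induced inhibitor of the same lipase, fell by 1.81 ± 0.35; Refed_562 and Refed_566, at 10.75 and 11.05, lay well below Refed_506 and Refed_508, at 12.98 and 13.47. Fst, follistatin, an activin antagonist that the liver secretes, read 10.65, 8.73, 10.71 and 9.19 fasted and 7.06, 6.28, 7.47 and 8.38 refed. Its fall of 2.50 ± 0.60 (adjusted p = 0.0157) was 2.09 without Fast_486 (adjusted p = 0.0674).

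Lipogenic genes rose in few cases. Of 22 genes of fatty acid and triglyceride synthesis, Thrsp, Fasn and Srebf1 rose and Elovl5 fell, with a list median of 0.01; without Fast_486, 1 of them passed. Thrsp, or Spot 14, a regulator of lipogenesis, read 8.77, 8.61, 9.22 and 10.71 fasted and 12.96, 13.88, 10.66 and 10.54 refed. Refed_506 and Refed_508 were high, the other 2 refed livers matched Fast_552, and the difference of 2.92 ± 0.76 had adjusted p = 0.0266, and 0.125 without Refed_506. Fasn, fatty acid synthase, read 6.75, 6.16, 6.53 and 6.78 fasted and 7.15, 7.84, 7.75 and 7.95 refed. It rose by 0.96 ± 0.27 with separate groups (adjusted p = 0.0452, and 0.0743 without Fast_486). The fasted readings of Fasn were low, near the median of all gene means, 6.17. Mid1ip1, a relative of Thrsp that activates acetyl-CoA carboxylase, lay outside the list and rose by 2.09 ± 0.39 (adjusted p = 0.00236). Its 4 refed livers, at 10.44 to 11.72, were all above the fasted livers, at 8.44 to 9.29. Scd1, the stearoyl-CoA desaturase, did not pass, at -0.04 ± 0.46, and Elovl5, an elongase of polyunsaturated fatty acids, fell by 1.07 ± 0.21.

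The sterol genes were split between the refed livers. Of 21 genes of cholesterol synthesis and uptake, 18 lay above 0 with a median of 0.74, yet 2 rose, Aacs and Lss. The mean level of the list was 9.68, 8.97, 8.81 and 9.20 in the fasted livers and 10.06, 10.49, 10.37 and 8.96 in the refed livers. Refed_566 was thus at the level of the fasted livers, and Fast_486 was the highest of its group. The median of the list was 1.54 within slide 184, where dye differed between the feeding states, and -0.20 within slide 185, which holds Refed_566. Sqle, squalene epoxidase, a rate-limiting enzyme, read 10.38, 7.47, 7.52 and 8.85 fasted and 10.53, 10.84, 11.04 and 8.42 refed. Its difference of 1.64 ± 0.69 did not pass (adjusted p = 0.23), and the lowest refed liver lay below 2 of the fasted ones. Aacs, which makes acetoacetyl-CoA for sterols and fatty acids in the cytosol, read 7.52, 7.34, 8.20 and 8.52 fasted and 10.90, 11.87, 10.31 and 9.32 refed. It rose by 2.54 ± 0.52 (adjusted p = 0.00464) with separate groups, Refed_566 being the lowest of the refed. Lss, lanosterol synthase, rose by 1.27 ± 0.36 (adjusted p = 0.0441), and the difference was 1.36 without Fast_486, with adjusted p = 0.0611. In IR/FoxO1 floxed mice 15 of the 21 genes rose, with a median of 1.81, but none passed the test of the difference between the floxed lines. The share of all genes that rose in those mice was not counted.

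Few genes of fat use passed the test, though most lay below 0. Of 34 genes of fatty acid oxidation and ketogenesis, 3 fell (Angptl4, Cpt1a and Etfdh) and none rose; 2 lay above 0 and the median was -0.37. Cpt1a, which lets fatty acids into mitochondria, read 13.65, 13.49, 13.39 and 13.85 fasted and 13.24, 13.10, 12.26 and 11.35 refed. It fell by 0.94 ± 0.26 (adjusted p = 0.0362), and adjusted p = 0.147 without Refed_566, the lowest liver; without Fast_486, 1 of the 3 genes passed. Of 17 lipid droplet genes, Plin4, Hsd17b13 and the lipase Pnpla2 fell by 1.37, 0.80 and 0.94. Abhd5, the activator of that lipase, rose by 0.60 ± 0.12 (adjusted p = 0.00439); 3 of the 4 genes passed without Fast_486 and 1 without Fast_542. Scarb1, the HDL receptor, fell by 0.79 and Nr1h3, the sterol sensor LXR alpha, rose by 0.44; both passed without Fast_486 and 1 without Fast_491. Mfsd2a, a lysophospholipid transporter of the fasting liver, read 11.00, 10.56, 11.85 and 12.70 fasted and 9.64, 9.97, 9.22 and 7.38 refed. It fell by 2.25 ± 0.53 (adjusted p = 0.0153), with Fast_552 and Refed_566, both on slide 185, at the ends of the range.

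Of 21 bile acid genes, 1 rose and 2 exporters fell; 2 of these 3 passed without Fast_486, and Cyp2c70 alone without Fast_542. Cyp2c70, which makes the muricholic acids of mice, read 12.67, 11.56, 10.76 and 10.11 fasted and 14.03, 14.54, 14.98 and 13.79 refed. The groups were separate and the rise was 3.10 ± 0.44 (adjusted p = 0.000203). Abcb4, the phospholipid exporter, fell by 0.86 ± 0.18 and Abcc2, the organic anion exporter, by 0.69 ± 0.19. Cyp7a1, the rate-limiting enzyme of bile acid synthesis, read 12.79, 12.44, 11.69 and 10.68 fasted and 10.46, 10.13, 10.59 and 9.91 refed. Its groups did not overlap, but the difference of -1.58 ± 0.53 did not pass (adjusted p = 0.097). Cyp8b1, which makes cholic acid, did not pass either, at -1.48 ± 0.44 (adjusted p = 0.062).

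Some metallothionein and glucocorticoid-responsive genes fell. Of 17 genes, 7 fell (Mt2, Cebpd, Klf15, Fkbp5, Ddit4, Klf9 and Sgk1) and none rose, with a median of -0.999; 3 passed without Fast_486, and the median was then -0.69. Within slides 184 and 185 the median was -1.34 and -0.69, and on slide 184 dye differed between the feeding states. Mt2, a zinc-binding metallothionein, read 15.96, 15.73, 15.05 and 15.32 fasted and 12.64, 12.15, 12.62 and 13.81 refed. It fell by 2.67 ± 0.36 (adjusted p = 0.000141) with separate groups, and its upper value lay at the top of the range. Cebpd, a transcription factor of the stress response, read 12.56, 11.53, 12.22 and 12.19 fasted and 9.99, 9.48, 9.80 and 10.36 refed. The fall of 2.14 ± 0.31 (adjusted p = 0.000229) was 1.99 without Fast_486. Ddit4, an mTORC1 inhibitor, read 14.44, 10.78, 11.43 and 10.23 fasted and 7.94, 9.03, 7.75 and 9.17 refed. Fast_486 was far above the other fasted livers; the difference was -3.11 ± 0.74 with it and -2.21 without it (adjusted p = 0.0668). Mt1 did not pass (-1.47 ± 0.48, adjusted p = 0.093), with fasted livers and Refed_566 at the top of the range.

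Immediate early, autophagy and stress genes gave smaller counts. Of 24 immediate early genes, 4 fell (Klf2, Btg1, Gadd45g and Btg2), none rose and 1 passed without Fast_486. Gadd45g, a stress-induced growth arrest gene, read 13.40, 12.19, 12.58 and 12.38 fasted and 10.84, 9.29, 9.95 and 11.08 refed. It fell by 2.23 ± 0.55 (adjusted p = 0.019), and by 1.89 without Fast_486 (adjusted p = 0.0755). Of 20 autophagy and lysosome genes, Map1lc3b and Gabarapl1, which coat autophagosomes, and the kinase gene Ulk1 fell by 0.99, 0.84 and 0.80, and 2 of them passed without Fast_486. Of 22 genes of the integrated stress response, Ddit4, Cebpb and Ppp1r15a fell and Ddit3, which encodes CHOP, rose; 3 of the 4 passed without Fast_486. Ddit3 read 7.245, 6.72, 6.70 and 6.73 fasted and 7.40, 7.53, 8.94 and 9.64 refed. The groups did not overlap, but the rise of 1.52 ± 0.35 was carried mostly by Refed_562 and Refed_566, and adjusted p = 0.0606 without Refed_562. Atf4 did not pass, at 0.27 ± 0.14. Of 20 clock genes, Per2 and Bhlhe40 rose by 1.32 ± 0.29 and 1.48 ± 0.36, with 1 passing without Fast_486 and neither without Fast_542.

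Several lists held few or no changes. Of 40 genes of amino acid catabolism, Got1 and Cdo1 fell (median -0.27), and neither passed without Fast_486. None of 8 urea cycle genes, 22 genes of the citric acid cycle and respiratory chain, 12 of growth hormone signalling or 21 interferon genes passed in limma; 2, 2, 3 and 1 of them had an unadjusted p under 0.05. Single genes passed among 22 acute phase genes (Steap4, a metalloreductase, higher by 1.20), 17 genes of the Nrf2 response (Osgin1) and 22 drug-metabolising enzymes (Cyp3a25, lower by 1.002). These 3 passed without Fast_486, but Steap4 did not pass without Fast_542, Refed_506 or Refed_562, nor Cyp3a25 without Fast_542 or Refed_506. Of the 811 genes, 118 were in a list and 693 in none.

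Some of the largest changes were in genes not yet described by liver. Osgin1, an oxidative stress-induced growth inhibitor, read 9.89, 10.81, 10.34 and 9.89 fasted and 14.10, 12.93, 13.49 and 12.68 refed. The gap between the groups was wider than the spread in either, and the rise was 3.05 ± 0.41 (adjusted p = 0.000111). Cyp26a1, which breaks down retinoic acid, read 7.18, 6.78, 6.75 and 6.67 fasted and 8.49, 8.26, 9.94 and 10.32 refed. It rose by 2.40 ± 0.37 (adjusted p = 0.000382), with Refed_562 and Refed_566 above the other refed livers. Nudt7, a peroxisomal coenzyme A hydrolase, read 11.33, 11.82, 10.75 and 11.63 fasted and 14.18, 14.10, 14.20 and 12.57 refed. Its rise was 2.38 ± 0.27 (adjusted p = 2.1e-05); Refed_566 lay below the other refed livers and still above the fasted ones. Rasgef1b, a guanine nucleotide exchange factor, read 11.46, 10.45, 11.55 and 11.75 fasted and 8.51, 8.68, 8.56 and 8.49 refed. This fall of 2.69 ± 0.30 (adjusted p = 1.43e-05) kept its call with each liver left out. B4galnt1, a ganglioside synthase, read 9.78, 9.48, 9.99 and 8.64 fasted and 6.24, 6.52, 6.12 and 5.68 refed. The refed livers were close to the lowest deposited values, and B4galnt1 fell by 3.56 ± 0.77 (adjusted p = 0.00778).

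The response of the other floxed line was set against this one because both genotypes keep the insulin receptor in the liver and share no samples. Of 22485 genes, 1 differed between the responses (0.00445%): Nfe2, a transcription factor of blood cells, did not pass in IR floxed liver (0.13 ± 0.21) and rose by 2.01 in IR/FoxO1 floxed liver, a difference of 1.87 ± 0.31 (adjusted p = 0.04). At an unadjusted p under 0.05, 920 genes differed; with slide as a block no gene passed in limma, and 507 had an unadjusted p under 0.05. The Nfe2 call rests on single livers: without any of Fast_486, Fast_491, Fast_542, Fast_552, Refed_506, Refed_508, Refed_562, IRF.fl_Fast_516, IRF.fl_Fast_533, IRF.fl_Refed_472 or IRF.fl_Refed_473 the limma count was 0 (904 genes at an unadjusted p under 0.05 without Fast_486), and it was 2 without Refed_566 and 5 without IRF.fl_Refed_467. The ER folding list had a median of 0.77 with 18 genes higher in IR/FoxO1 floxed liver, beside 0.83 and 21 here. Ribosome biogenesis had 8 genes higher beside 10, and the metallothionein and glucocorticoid list 7 lower in both lines. The share of all genes called in IR/FoxO1 floxed liver was not counted, so these list counts have no background for that line. B4galnt1 differed by 0.22 in IR/FoxO1 floxed liver, and the difference of 3.78 ± 1.10 between the lines did not pass (adjusted p = 0.96). The 7 measured erythroid genes all lay below 0 in IR floxed liver, with a median of -0.82, and had a median of 1.09 in IR/FoxO1 floxed liver; no erythroid gene passed in either line in limma (2 in IR floxed liver had an unadjusted p under 0.05), and the part of blood cells in the Nfe2 difference was not tested.

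Few responses differed past the threshold between IR floxed liver and LIRKO liver, which lacks the hepatocyte insulin receptor. The test of that difference called 37 genes (0.165%), 22 with the LIRKO response higher and 15 with it lower, and 1785 had an unadjusted p under 0.05. The count was 3 with slide as a block. It was 4, 16, 13 and 24 without Fast_486, Fast_491, Fast_542 and Fast_552 in turn, and 7, 21, 6 and 66 without Refed_506, Refed_508, Refed_562 and Refed_566. Of the LIRKO livers, IR.KO_Fast_505 left 3 genes when it was taken out, and IR.KO_Refed_553, IR.KO_Refed_558 and IR.KO_Refed_564 left 17, 11 and 14. Of the 37, 11 had also changed with refeeding in IR floxed liver. Nat8f5, an acetyltransferase of the N-acetyltransferase 8 family, read 8.25, 7.83, 8.19 and 7.97 fasted and 10.001, 10.27, 10.88 and 9.003 refed in IR floxed liver. It rose there by 1.97 ± 0.26, against -0.22 in LIRKO liver, a difference of -2.19 (adjusted p = 0.013). Flvcr2, a choline and haem transporter, read 8.23, 8.47, 8.34 and 8.81 fasted and 6.83, 6.68, 6.63 and 7.34 refed. This fall of 1.60 ± 0.15 (adjusted p = 1e-06) was -0.15 in LIRKO liver and -1.52 in IR/FoxO1 floxed liver. Fbxo21, an F-box protein, fell by 1.32 ± 0.19 and differed by 0.50 in LIRKO liver. Cyp2c70 and Osgin1 differed by 0.12 and 0.24 in LIRKO liver, beside rises of 3.10 and 3.05 here. Glod5, Slc17a4 and Mmp11 did not pass in IR floxed liver, at -0.03, -0.25 and -0.35, and lay at 1.23, 1.07 and 1.04 in LIRKO liver.

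**Figure D5:**
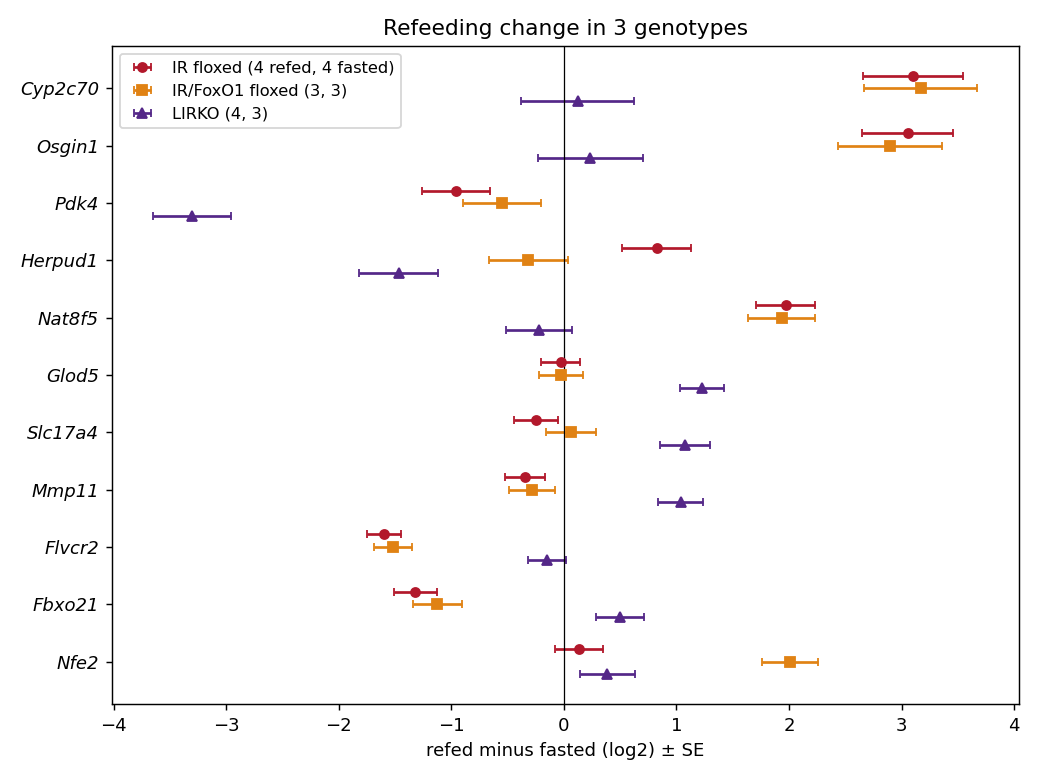
Refed minus fasted difference (log2, horizontal axis) with its standard error for 11 genes in IR floxed (red circles), IR/FoxO1 floxed (orange squares) and LIRKO liver (purple triangles). For Cyp2c70 and Osgin1 both floxed lines lie near 3 and LIRKO near 0; for Nfe2 the IR/FoxO1 floxed line stands apart, at 2.01.

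The gene groups of the LIRKO response are given beside those of IR floxed liver. The share of all genes called in LIRKO liver was not counted, so a lower count there is not read as a smaller response. In the ER folding list the LIRKO response had a median of 0.27 with 1 gene higher and 2 lower; Herpud1, a part of ER-associated degradation, was the member whose response differed, at 0.83 ± 0.31 in IR floxed (adjusted p = 0.157) and -1.47 in LIRKO. In ribosome biogenesis the LIRKO median was 0.07 with no gene called, and in the sterol list -0.16 with none called, and no member of either list passed the test of the difference. Igfbp1 differed by -0.25 in LIRKO liver, and the difference from IR floxed did not pass (adjusted p = 0.21). The metallothionein and glucocorticoid list had 6 genes lower in LIRKO with a median of -0.95, beside 7 and -0.999 here. Pdk4, the kinase that shuts pyruvate dehydrogenase in fasting, read 7.49, 6.49, 7.82 and 7.15 fasted and 6.29, 6.16, 6.35 and 7.14 refed in IR floxed liver. It did not pass there (-0.96 ± 0.30, adjusted p = 0.0819), while the LIRKO response was -3.31 and the difference -2.35.

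In IR floxed liver no marker gene passed the limma test in any of 14 cell type lists. The 13 Kupffer cell and macrophage markers had a median of -0.34, with mean levels of 8.16 to 8.51 in the fasted and 7.86 to 8.08 in the refed livers, which did not overlap; 3 of the 13 had an unadjusted p under 0.05. In LIRKO liver the same markers had a median of 0.49, with mean levels of 8.56 to 8.81 fasted and 9.13 to 9.23 refed, which did not overlap either. Lyz2, a macrophage lysozyme, rose there by 0.67 ± 0.16 (adjusted p = 0.0211), and Lrat, a retinol-storing enzyme of stellate cells, by 1.05 ± 0.16 (adjusted p = 0.000346). Neither passed the test of the difference from IR floxed liver (adjusted p = 0.393 for Lyz2 and 0.0949 for Lrat). Lrat was the 1 gene called among 11 stellate cell and fibroblast markers, whose median in LIRKO liver was -0.15. The part of macrophages and stellate cells in the LIRKO comparison was not tested. The 10 sinusoidal endothelial markers, all below 0, had a median of -0.10. In whole liver, fewer cells of a type and less RNA per cell cannot be told apart.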

How the data were processed

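Liver RNA was measured on 2-colour Agilent arrays whose channels were deposited as separate samples, so each sample is 1 dye of 1 array. The authors deposited log2 values for 45220 features; R 3.1.0 and limma 3.20.1 appear in the submitters' processing notes, and how background was corrected and arrays were normalized is not given in the sources used here. Features were named through GEO's platform annotation, 33026 with 1 gene and 12194 without, and the feature with the highest mean over all 38 columns stood for each of 22485 genes. No genome build is named, so the only coordinates are those of RefSeq promoters.

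A mean per group was fitted over 37 samples in 11 groups with limma 3.58.1 (R 4.3.3), with a fixed term for dye and a random block for array (correlation 0.358); 1 sample with conflicting labels was left out. Dye was balanced in both groups of 4, which lay on 7 arrays and 5 slides, and only Fast_542 and Refed_506 shared an array. P-values were adjusted by Benjamini-Hochberg over all genes, threshold 0.05. The difference between genotypes was a contrast in the same fit. The fit was run on simulated data with known changes. Those data held no slide effect and no liver with acinar RNA, so the run says nothing about how the calls depend on these.

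Named genes were the 12 largest rises and 12 largest falls with separate groups and above-median mean level, 4 genes of smallest p in each of 37 lists and further members that a list's description needed, 5 genes per direction of each difference test, the deleted genes and the acinar markers. Predicted gene models were passed over. Alg12 and Hnrnpa3 were named after their values were seen. The members, lists and markers were chosen with earlier results of these data known. Motifs were matched as exact letters in RefSeq promoter windows.

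The number of livers, 8 on 7 arrays for the main comparison, limits the precision. The 11 alternatives covered the blocks, dye, normalization, the filter, the choice of probe, variance models and the samples fitted; each library was also left out in turn, and 2 slides were read alone.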

Additional observations from a re-analysis of the deposited data

Results flagged for a closer look

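In groups of 4 livers, the gap of the highest or lowest liver to the nearest other was set against the group's range by Dixon's rule, over 462 groups. Chance marks about 1 in 20 groups. The 36 values marked (7.79%) include 12 of acinar markers, which were named because Fast_486 stood apart in them; the other 24 came from 418 groups. Fast_486 accounted for 15 of the 36 and Refed_566 for 8.

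Acinar genes marked in Fast_486 were Ctrb1 at 12.18, Clps at 11.02, Sycn at 10.95, Try5 at 10.91, Ctrc at 10.05, Reg1 at 8.52, Cel at 8.21, Gp2 at 7.78, Pla2g1b at 6.37 and Rnase1 at 6.25. Low-level acinar values were marked in Refed_506 (Clps, 6.85) and Refed_562 (Rnase1, 5.53). Other values of Fast_486 were Fdps, a sterol synthesis enzyme, at 11.04 against 9.64 to 9.71 in the other fasted livers, Ddit3 at 7.245, Uso1 at 10.02, Nags, which makes the activator of the urea cycle, at 9.88, and the mean of the gluconeogenesis list at 12.66 against 12.26 to 12.32.

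Refed_566 was low for Saa4, a serum amyloid A protein, at 10.52 against 12.81 to 13.11 in the other refed livers. It was also low for Apoa5, a triglyceride-regulating apolipoprotein (9.72 against 11.56 to 11.78), Nudt7 (12.57), Igtp, an interferon-induced GTPase (10.94 against 12.26 to 12.52), Suclg1 of the citric acid cycle (12.51), and the means of the bile acid list (11.13) and the intestine markers (6.83). It was high for the lipase Pnpla2, at 11.91 against 10.93 to 11.06.

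The remaining values were, in Fast_491 Xbp1 at 12.93, Stip1 at 8.996, Foxo1 at 9.98 and the FoxO1 target mean at 9.40; in Fast_552 Phka2 at 9.02, Arcn1 at 10.92, the insulin signalling mean at 8.58 and the cholangiocyte mean at 5.83; in Refed_508 Pdia6 at 13.81 and the Kupffer cell mean at 7.86; in Refed_506 Tmed9 at 12.09.

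Responses that differed between genotypes by the test of the difference were Nfe2 (IR/FoxO1 floxed minus IR floxed, 1.87) and, for LIRKO minus IR floxed, Cyp2c70 (-2.98), Osgin1 (-2.82), Pdk4 (-2.35), Herpud1 (-2.29), Nat8f5 (-2.19), Fbxo21 (1.82), Flvcr2 (1.45), Mmp11 (1.38), Slc17a4 (1.32) and Glod5 (1.25). Their causes were not tested.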

How the results depend on the processing

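The refeeding count of 811 genes (477 higher, 334 lower) was 493 with slide as a fixed block (270 higher, 451 of the calls shared), 61 with only the 8 livers fitted (29 higher, 32 lower, 52 shared) and 1393 with library quality weights (802 higher, 591 lower, 796 shared). Fitting only 8 livers leaves 5 residual degrees of freedom in place of 25. The other 8 settings gave 567 to 930 genes. Leaving out 1 liver gave 415 to 794 genes, 247 to 490 higher and 168 to 304 lower. Of 86 named genes with a call, slide as a block lost 20, no block 10, no dye term 10 and the 8 livers alone 75; leaving out 1 liver lost between 12 (Fast_552) and 28 (Fast_542). Within slide 185, which holds 1 liver of each state, Thrsp (-0.168), Cdo1 (0.090) and Steap4 (-0.093) reversed. None did within slide 184, where dye differed between the states. Within slide 185, 34 of the 86 genes were counted as the same, and 49 moved without reversing. Within slide 184, 66 were the same and 20 moved. The median kept its sign in 33 of 37 lists with slide as a block, 29 without Fast_491 and 25 within slide 185.

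The difference between the floxed lines, 1 gene, became 0 with slide as a block, 0 with no block and 0 with no dye term in limma (507, 448 and 640 genes at an unadjusted p under 0.05), and 2 with dim genes left out, 2 with a variance trend and 2 with quality weights; leaving out 1 library gave 0 to 5. The difference from LIRKO, 37 genes, became 3, 5 and 9 under the first 3 of these settings and 68 with quality weights; leaving out 1 library gave 3 to 66. The groups share no replicate numbers. No paired analysis was possible because mouse numbers differ between fasted and refed livers. The deposited values carry no background signal, so whether a dim gene was above background is not known. The causes of these shifts were not tested.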

Other observations

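Of 12194 features without a gene name in the annotation used, 102 passed the same test, 74 higher and 28 lower after refeeding. They were fitted apart from the named genes and enter no count above.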
